A study of Homo sapiens with 36 samples.

Results

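The 10 genes described here encode vascular endothelial growth factor (VEGF) ligands and receptors and the angiopoietin ligands with their TIE receptors: VEGFA, VEGFB, VEGFC, PGF, FLT1, KDR, ANGPT1, ANGPT2, TEK and TIE1. They were taken by gene symbol from the 23146 loci that each of the 9 deposited tables lists, and all 10 were found in every table. The family was selected on the group FPKM values and fold changes of these same tables, KDR being among the genes with a large lasting rise under the small molecules. Its levels and calls are therefore descriptions of these libraries.

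The cells were MRC-5, an established human line of fetal lung fibroblasts, in a study of fibroblasts driven toward neurons by NEUROG2, a basic helix-loop-helix factor that starts neuronal differentiation. Total RNA was sequenced from 36 libraries, 3 in each of 12 groups (4 conditions, 3 times). The control, GFP, had a lentivirus for GFP and no molecules. FD cells carried the GFP lentivirus and received 10 µM forskolin, which activates adenylyl cyclase and so raises cyclic AMP, and 1 µM dorsomorphin, which inhibits BMP type I receptors and AMPK. N cells carried a lentivirus for HA-tagged NEUROG2, and NFD cells carried that virus and received both molecules at the same doses. Times were 0.5, 1 and 2 days after the molecules were added (DPT), counted from the same event in cultures that received none. All groups had been transduced, and all came from 1 cell line. FD, N and NFD cells were kept in neuron induction medium. For GFP cells the treatment label names a serum medium while the protocol names neuron induction medium, so in every comparison with GFP the treatment and a change of medium cannot be told apart.

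VEGF ligands are secreted dimers. VEGFA binds the receptor tyrosine kinases FLT1 (VEGFR1) and KDR (VEGFR2), VEGFB and PGF bind FLT1, and VEGFC binds FLT4 (VEGFR3) and, once processed, KDR. KDR carries most of the mitogenic signal in endothelial cells, while FLT1 binds VEGFA tightly, signals weakly and has a secreted form that traps ligand. ANGPT1, made by fibroblasts and mural cells, activates the receptor TEK (TIE2) on endothelial cells, ANGPT2 acts there as a context-dependent antagonist, and TIE1 is a co-receptor of TEK with no firmly established ligand of its own.

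Promoter windows are shown for 4 members with rises in different conditions: KDR for its rise in FD cells, FLT1 and PGF for their rises in N and NFD cells, and TIE1 for its rise in NFD cells. Each is the strand of the gene, from 250 bases before to 50 bases after the annotated start, from RefSeq on GRCh38.p14, a later build than the GRCh37 of the expression tables. Capitals mark matches to CANNTG, the E-box read by basic helix-loop-helix factors, and to TGACG, the core of the cyclic AMP response element (CRE, TGACGTCA), on either strand. KDR lies at chr4:55125546-55125845 (minus strand), FLT1 at chr13:28495079-28495378 (minus strand), PGF at chr14:74955715-74956014 (minus strand, the upstream of 2 listed starts) and TIE1 at chr1:43300732-43301031 (plus strand).
KDR: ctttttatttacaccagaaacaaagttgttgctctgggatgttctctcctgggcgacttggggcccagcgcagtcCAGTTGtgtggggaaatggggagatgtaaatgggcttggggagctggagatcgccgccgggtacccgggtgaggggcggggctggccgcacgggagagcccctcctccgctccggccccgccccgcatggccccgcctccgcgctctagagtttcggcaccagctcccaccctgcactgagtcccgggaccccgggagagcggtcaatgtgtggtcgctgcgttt
FLT1: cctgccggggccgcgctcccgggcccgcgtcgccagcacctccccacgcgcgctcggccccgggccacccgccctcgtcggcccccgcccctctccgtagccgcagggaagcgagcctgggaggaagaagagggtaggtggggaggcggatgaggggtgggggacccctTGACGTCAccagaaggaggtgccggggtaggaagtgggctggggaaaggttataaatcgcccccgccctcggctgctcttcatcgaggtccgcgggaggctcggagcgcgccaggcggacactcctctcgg
PGF: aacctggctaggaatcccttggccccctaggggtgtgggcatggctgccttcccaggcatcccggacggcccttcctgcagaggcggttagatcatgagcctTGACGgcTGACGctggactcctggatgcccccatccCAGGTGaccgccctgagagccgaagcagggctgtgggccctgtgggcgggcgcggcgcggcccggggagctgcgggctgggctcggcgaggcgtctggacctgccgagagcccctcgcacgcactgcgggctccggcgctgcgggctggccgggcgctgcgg
TIE1: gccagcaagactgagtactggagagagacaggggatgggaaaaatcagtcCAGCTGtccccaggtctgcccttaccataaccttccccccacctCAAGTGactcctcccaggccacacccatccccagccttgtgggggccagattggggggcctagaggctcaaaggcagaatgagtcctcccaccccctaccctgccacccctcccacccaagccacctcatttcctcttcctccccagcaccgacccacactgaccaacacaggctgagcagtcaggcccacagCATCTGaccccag
The FLT1 window held 1 full CRE, in which the 2 matches to TGACG overlap, 1 on each strand, and no E-box. The printed PGF window held 2 matches to TGACG and 1 E-box. The window of the other PGF start was searched, is not printed and held no TGACG and no E-box. The KDR window held 1 E-box and no TGACG. The TIE1 window held 3 E-boxes, 1 of them of the CAGATG type and read here on the other strand, and no TGACG. Of the 35116 promoter windows of the same length in the table, 1.85% held TGACGTCA, 24.6% TGACG, 68.7% CANNTG and 14.7% CAGATG, the last being a subset of CANNTG. The other motifs searched were ACGTG, a hypoxia element core, and GGAA, an ETS core found in 95.5% of all windows. ACGTG was found in 21.4% of all windows and in none of the 9 windows searched, which belong to 7 members. These matches describe letters in a window and are no evidence of binding. Windows of VEGFB, VEGFC and TEK were searched and are not printed. No window of VEGFA, ANGPT1 or ANGPT2 was searched, so the absence of ACGTG does not cover them.

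Values are the authors' FPKM, which scale read counts for transcript length and library size, 1 per group of 3 libraries, so no spread per group is given and levels of neighbouring genes cannot be set apart by their error. The words "rose" and "fell" are kept for a deposited q-value of 0.05 or less against GFP of the same time. Whether a group's 3 libraries came from separate cultures is not stated in the labels, so the authors' p-values may reflect technical spread alone. Where 3 values are given together they are for 0.5, 1 and 2 DPT, and log2 fold changes and q-values are from the authors' deposited tables. Gene positions are those of the tables, on GRCh37. The smallest q-value the tables give is 0.000151, and several genes share it. N cells had NEUROG2 levels of 2616, 2565 and 2641 FPKM, against 36.7, 18.5 and 15.3 FPKM in GFP cells. In NFD cells it was marked as too deep to be computed and listed at 0, so the NEUROG2 level there is not given.

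In GFP cells the ligands VEGFA, VEGFB and ANGPT1 were the most abundant members at every time. VEGFB led at 0.5 and 1 DPT and VEGFA at 2 DPT, with ANGPT1 next after them at every time, while KDR, ANGPT2, TIE1 and PGF were each under 1 FPKM. Of the 10 members, 6 passed 1 FPKM in GFP cells at each time. The order changed with condition: in FD cells VEGFA led at every time, in N cells ANGPT1 led at every time, and in NFD cells VEGFA led and FLT1 was second from 1 DPT on. These orders compare FPKM, a level per transcript length.

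**Figure D1:**
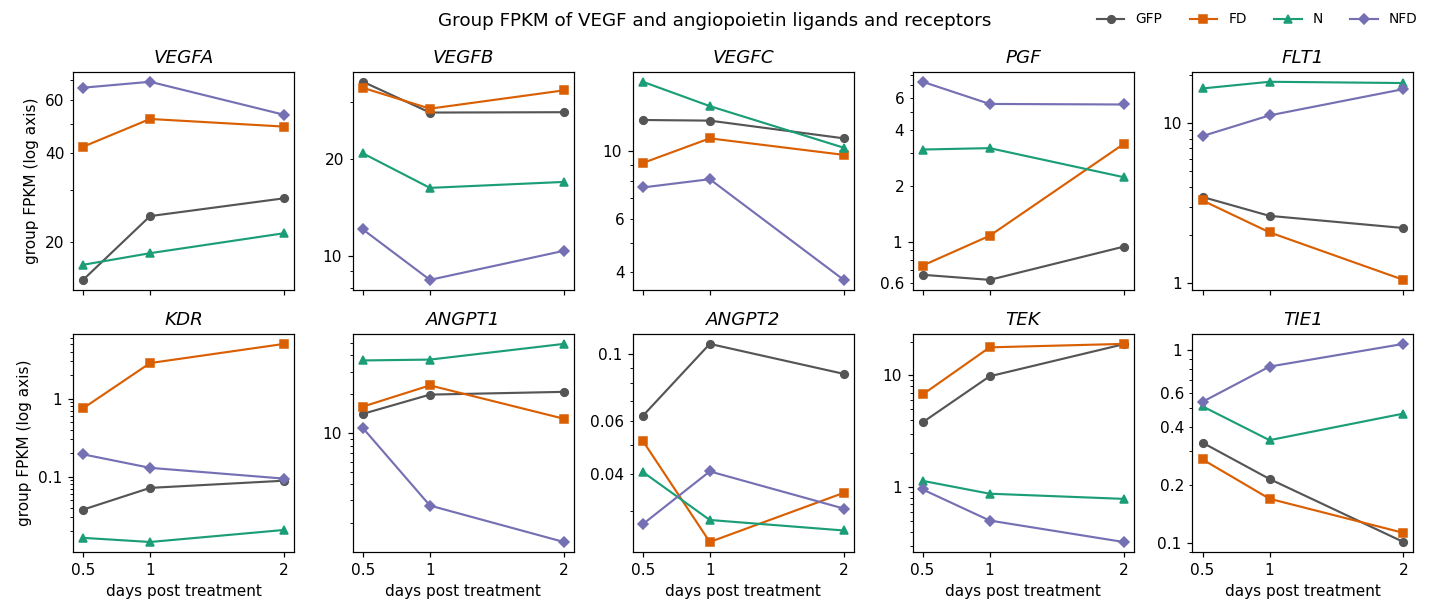
FPKM of each of the 10 members on a log axis against days post treatment (DPT), with 1 line for each of the 4 conditions; each point is the authors' value for 3 libraries, so there are no error bars. KDR climbs in FD cells to 5.04 FPKM while TEK falls in N and NFD cells and ANGPT1 falls in NFD cells.

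VEGFA (chromosome 6, 43737945 to 43754223), the main ligand of KDR and FLT1, was higher under the molecules with or without NEUROG2. It was listed at 14.9, 24.5 and 28.1 FPKM in GFP cells and at 41.8, 51.8 and 48.9 FPKM in FD cells. N cells had 16.8, 18.4 and 21.4 FPKM, and NFD cells 66.0, 69.1 and 53.6 FPKM. Both groups that received molecules stood above both groups that did not at every time. In the authors' deposited tables VEGFA rose in FD cells by 1.48, 1.08 and 0.80 and in NFD cells by 2.14, 1.50 and 0.93 on the log2 scale (q = 0.000151 for each). In N cells the log2 fold change was 0.17 at 0.5 DPT, which did not pass, and VEGFA fell at 1 and 2 DPT with -0.41 and -0.39 in the authors' deposited tables. The GFP level itself was 1.88-fold higher at 2 than at 0.5 DPT, so the narrowing of the fold in FD cells came with a rising control.

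VEGFB (chromosome 11, 64002265 to 64006259), a ligand of FLT1 linked to fatty acid handling and cell survival, was lower wherever NEUROG2 was present. GFP cells had 34.6, 27.8 and 27.9 FPKM and FD cells 33.2, 28.6 and 32.6 FPKM, which lie close together. N cells had 20.8, 16.3 and 17.0 FPKM and NFD cells 12.1, 8.46 and 10.4 FPKM. VEGFB fell in N cells, with log2 fold changes of -0.74, -0.77 and -0.72, and in NFD cells, with -1.52, -1.72 and -1.42 (q = 0.000151 for each), per the authors' deposited tables. In FD cells the log2 fold changes were -0.06, 0.04 and 0.22, and none passed.

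VEGFC (chromosome 4, 177604690 to 177713895), the lymphatic growth factor, was lowest in NFD cells. It was listed at 12.7, 12.6 and 11.0 FPKM in GFP cells, at 9.14, 11.0 and 9.73 FPKM in FD cells, at 16.9, 14.1 and 10.3 FPKM in N cells and at 7.60, 8.09 and 3.77 FPKM in NFD cells. NFD cells were the lowest of the 4 conditions at every time. VEGFC fell in NFD cells with log2 fold changes of -0.74, -0.64 and -1.55 in the authors' deposited tables. The same tables list a fall (-0.47) in FD cells and a rise (0.42) in N cells at 0.5 DPT, while the later values of -0.19 and -0.18 in FD cells and 0.16 and -0.10 in N cells did not pass.

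PGF (chromosome 14, 75408532 to 75422467), placental growth factor, binds FLT1 but not KDR. It was low in GFP cells, higher with NEUROG2 and, at 1 and 2 DPT, higher in FD cells. GFP cells had 0.663, 0.622 and 0.940 FPKM and FD cells 0.744, 1.08 and 3.37 FPKM. N cells had 3.15, 3.20 and 2.23 FPKM and NFD cells 7.32, 5.55 and 5.52 FPKM. Every NFD value was above every value of the other 3 conditions. PGF rose in N cells by 2.25, 2.36 and 1.25 and in NFD cells by 3.46, 3.16 and 2.55 on the log2 scale in the authors' deposited tables (q = 0.000151 for each). In FD cells the rise came later in the authors' deposited tables: 0.17 did not pass at 0.5 DPT, while 0.79 and 1.84 passed at 1 and 2 DPT (q = 0.00260 and 0.000151).

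FLT1 (chromosome 13, 28874482 to 29069265), the receptor shared by VEGFA, VEGFB and PGF, was higher in both NEUROG2 conditions and lower in FD cells at 2 DPT. It was listed at 3.45, 2.62 and 2.20 FPKM in GFP cells and at 3.27, 2.07 and 1.04 FPKM in FD cells. N cells had 16.5, 18.2 and 17.9 FPKM, while NFD cells had 8.31, 11.2 and 16.4 FPKM. The NFD level was below the N level at 0.5 and 1 DPT and close to it at 2 DPT. FLT1 rose in N cells by 2.26, 2.79 and 3.02 and in NFD cells by 1.27, 2.09 and 2.89 on the log2 scale (q = 0.000151 for each) in the authors' deposited tables. In FD cells it fell at 1 and 2 DPT, with -0.34 and -1.08, in the authors' deposited tables, the first with q = 0.0418, a call that is lost at a q-value of 0.01, and -0.07 at 0.5 DPT did not pass. A gene-level FPKM does not separate membrane from secreted FLT1 transcripts.

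KDR (chromosome 4, 55944425 to 55991762), the main signalling receptor of VEGFA, was near 0 in every condition but FD. GFP cells had 0.0378, 0.0719 and 0.0888 FPKM, N cells 0.0164, 0.0146 and 0.0208 FPKM, and NFD cells 0.194, 0.130 and 0.0945 FPKM. FD cells had 0.753, 2.86 and 5.04 FPKM. Each FD value was above all 9 values of the other conditions. KDR rose in FD cells by 4.32, 5.31 and 5.83 on the log2 scale (q = 0.000151 for each) in the authors' deposited tables, and these folds rest on a GFP level under 0.1 FPKM. At 0.5 DPT both levels are under 1 FPKM, so that rise leaves the count under a filter at 1 FPKM. With a pseudocount of 1 FPKM the log2 fold changes were 0.76, 1.85 and 2.47. The authors' deposited tables mark KDR as not tested in N and NFD cells. With the molecules present in both, the FD level was 3.89, 22.0 and 53.3 times the NFD level, and this ratio has no test. The NFD level in turn was 11.8, 8.92 and 4.55 times the N level, with all 6 values under 0.2 FPKM.

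ANGPT1 (chromosome 8, 108261709 to 108510254), the activating ligand of TEK, moved in opposite directions in the 2 NEUROG2 conditions. GFP cells had 14.1, 19.9 and 20.9 FPKM and FD cells 16.0, 23.4 and 12.9 FPKM. N cells had 36.6, 37.2 and 49.2 FPKM, and NFD cells 10.9, 2.74 and 1.43 FPKM. N cells were the highest and NFD cells the lowest of the 4 conditions at every time. ANGPT1 rose in N cells by 1.38, 0.90 and 1.24 on the log2 scale and fell in NFD cells with -0.37, -2.86 and -3.87 in the authors' deposited tables. In FD cells the authors' deposited log2 fold changes of 0.19 and 0.24 did not pass, and ANGPT1 fell at 2 DPT with -0.69. The N level was 3.35, 13.6 and 34.5 times the NFD level.

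ANGPT2 was between 0.0237 and 0.108 FPKM in all 12 groups, and the authors' deposited tables tested it in none. Its listed span (chromosome 8, 6264112 to 6501140) is shared with MCPH1, within which it lies. How the counting treated strand is not given in the sources used here, so even these low values may include reads of the other gene.

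TEK (chromosome 9, 27109146 to 27230172), the angiopoietin receptor, was present in these fibroblasts and was lower in both NEUROG2 conditions. GFP cells had 3.80, 9.80 and 19.0 FPKM, a 4.99-fold difference between 0.5 and 2 DPT, and FD cells had 6.74, 17.8 and 19.1 FPKM. N cells had 1.14, 0.874 and 0.786 FPKM and NFD cells 0.954, 0.503 and 0.323 FPKM. The levels climbed with time in GFP and FD cells and declined in N and NFD cells. TEK fell in N cells, with log2 fold changes of -1.74, -3.49 and -4.59, and in NFD cells, with -1.99, -4.28 and -5.87, in the authors' deposited tables (q = 0.000151 for each). Part of the widening fold is the climb of the GFP level. In FD cells TEK rose by 0.83 and 0.86 at 0.5 and 1 DPT in the authors' deposited tables, and 0.01 at 2 DPT did not pass (q = 0.947).

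TIE1 (chromosome 1, 43766663 to 43788779), the co-receptor of TEK, was low throughout and highest in NFD cells. GFP cells had 0.332, 0.215 and 0.101 FPKM, FD cells 0.271, 0.170 and 0.113 FPKM, N cells 0.512, 0.342 and 0.470 FPKM, and NFD cells 0.541, 0.824 and 1.08 FPKM. NFD cells were the highest of the 4 conditions at every time, though 1.08 FPKM is still a low level. TIE1 rose in NFD cells by 0.71, 1.94 and 3.42 on the log2 scale and in N cells by 0.63 at 0.5 DPT, per the authors' deposited tables. The rise in N cells had q = 0.0190 and is lost at a q-value of 0.01, and the rises before 2 DPT are lost under a filter at 1 FPKM. With a pseudocount of 1 FPKM the NFD values were 0.21, 0.59 and 0.92. It was not tested in FD cells, nor in N cells at 1 and 2 DPT. TEK and TIE1, receptors of 1 complex, thus had opposite calls in NFD cells at all 3 times.

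**Figure D2:**
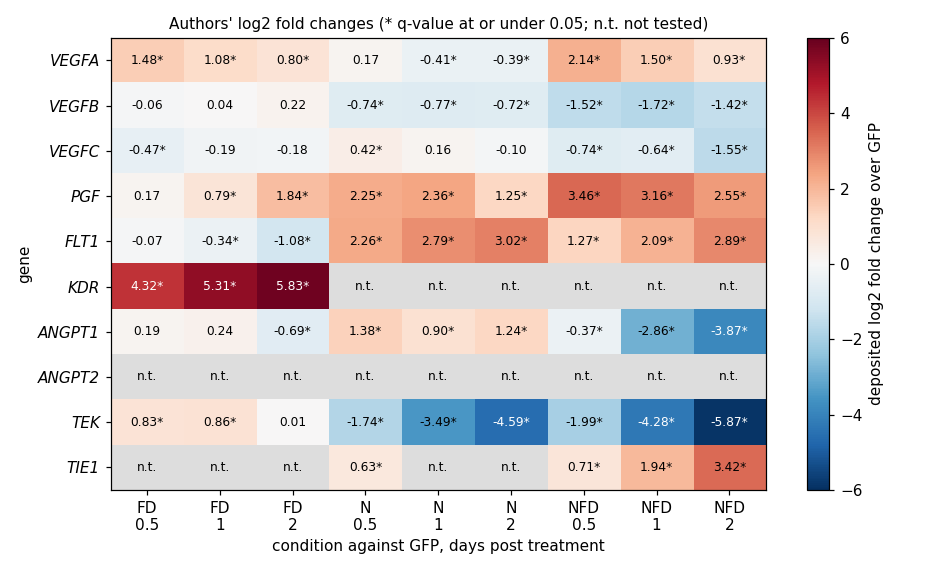
Log2 fold change against GFP of the same time, from the authors' deposited tables, for each member (rows) in FD, N and NFD cells at 0.5, 1 and 2 DPT; calls are marked by the authors' q-value at or under 0.05. KDR is strongly up in FD cells, FLT1 and PGF are up in N and NFD cells, and TEK is down in N and NFD cells. PGF is also up in FD cells at 1 and 2 DPT.

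Of the members tested in FD cells, 3, 4 and 3 of 8 rose, where 17.8%, 16.0% and 16.9% of all tested loci did, and 1, 1 and 2 fell, where 18.8%, 22.3% and 21.6% of all tested loci did. In N cells 5, 3 and 3 of 8, 7 and 7 rose, with 26.2%, 25.4% and 27.1% of all tested loci, and 2, 3 and 3 fell, with 24.3%, 29.3% and 30.0%. In NFD cells 4 of 8 rose and 4 of 8 fell at each time, where 32.1%, 32.6% and 34.1% of all tested loci rose and 31.3%, 33.2% and 32.0% fell. The members' median log2 fold changes were 0.18, 0.51 and 0.12 in FD cells, 0.52, 0.16 and -0.10 in N cells and 0.17, 0.43 and -0.25 in NFD cells. The medians over all tested loci lay within 0.05 of 0 in every table. Members that passed the authors' minimum for a test had to be expressed in at least 1 group, the 3 comparisons of a time share their GFP control, and the members were chosen with these values known, so nothing is read from these shares.

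What the molecules did with NEUROG2 present was asked by setting NFD against N. The tables hold no direct test, so the difference of the 2 deposited log2 fold changes was tested with an approximate normal test whose standard errors (SE) come from the deposited p-values. They are upper bounds where the GFP group is shared or a p-value is the smallest the tables give, and are then marked "at most". A gene passed where the p-value adjusted over all loci was 0.05 or less, a miss does not show that 2 folds are alike, and the normal form is rough with 3 libraries a group, so differences are given with their SE and no p. VEGFA, VEGFC and ANGPT1 passed at all 3 times, which is 3 of 8, 3 of 7 and 3 of 7 members tested, where 12.4%, 18.4% and 18.6% of all loci passed. VEGFA was higher in NFD than in N cells by 1.97, 1.91 and 1.32 (SE at most 0.54, 0.39 and 0.26). ANGPT1 differed by -1.75, -3.76 and -5.11 (SE at most 0.36, 0.74 and 1.00). VEGFC differed by -1.16, -0.80 and -1.45 (SE at most 0.22, 0.20 and 0.40). FLT1 differed by -0.99, -0.70 and -0.13 (SE at most 0.64, 0.86 and 1.03) and did not pass. PGF differed by 1.22, 0.79 and 1.30 (SE at most 1.02, 0.97 and 0.70) and did not pass.

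What NEUROG2 did with the molecules present was asked by setting NFD against FD in the same way, and 5 of 7 members passed at each time, where 36.0%, 44.1% and 44.6% of all loci did. VEGFB was lower in NFD cells at all 3 times, with -1.45, -1.76 and -1.65 (SE at most 0.39, 0.44 and 0.37). ANGPT1 was lower with -0.56, -3.10 and -3.18 (SE at most 0.16, 0.71 and 0.97), and TEK with -2.82, -5.14 and -5.88 (SE at most 0.53, 1.08 and 1.45). FLT1 was higher by 1.34, 2.44 and 3.97 (SE at most 0.34, 0.54 and 0.76). PGF passed at 0.5 and 1 DPT with 3.30 and 2.37 (SE at most 0.89 and 0.82), the second being lost at an adjusted p of 0.01. At 2 DPT PGF differed by 0.71 (SE at most 0.78) and did not pass. VEGFC passed at 2 DPT with -1.37 (SE at most 0.40). At 0.5 and 1 DPT VEGFC differed by -0.27 and -0.45 (SE at most 0.22 and 0.20) and did not pass. VEGFA differed by 0.66, 0.41 and 0.13 (SE at most 0.64, 0.46 and 0.30) and did not pass.

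**Figure D3:**
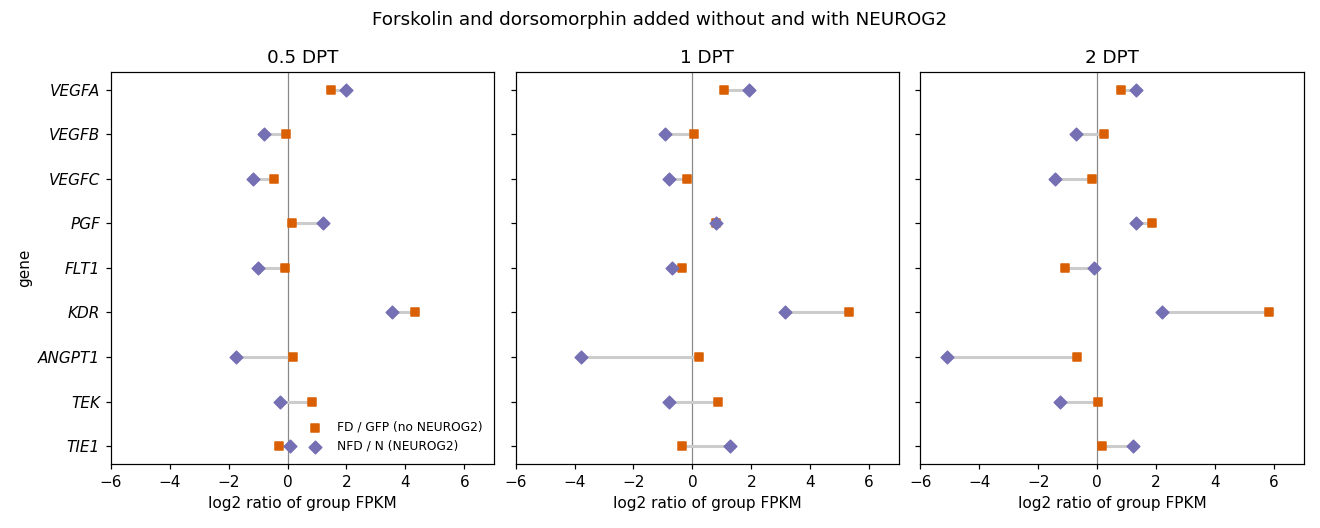
Log2 ratio of group FPKM with over without forskolin and dorsomorphin (squares FD over GFP, diamonds NFD over N) for 9 members, ANGPT2 left out, with 1 panel per time; a line joins the 2 effects of a gene. The effects on VEGFA lie on the same side of 0, while those on ANGPT1 lie far apart, at -0.69 and -5.11 at 2 DPT. FD over GFP may also hold a change of medium, which NFD over N does not.

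The molecule effect without NEUROG2 (FD over GFP) was set against that with NEUROG2 (NFD over N), a test added after the values had been seen. It passed for 1, 1 and 2 of 7 members, where 3.31%, 13.8% and 16.1% of all loci passed. ANGPT1 passed at every time: the effect with NEUROG2 minus that without was -1.93, -4.00 and -4.42 (SE at most 0.38, 0.75 and 1.02). VEGFC passed at 2 DPT with -1.26 (SE at most 0.42). VEGFA did not pass, with differences of 0.49, 0.83 and 0.52 (SE at most 0.65, 0.47 and 0.32), and KDR could not be tested. The effects are listed for these groups only and say nothing of forskolin or dorsomorphin given alone, which no group received. FD over GFP may also hold the change of medium described above, which NFD over N does not. In a difference between these effects, a dependence on NEUROG2 and a change of medium therefore cannot be told apart.

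The fold against GFP was also compared between 2 and 0.5 DPT within a condition, over 4 of 8, 2 of 7 and 3 of 8 members in FD, N and NFD cells that passed, where 10.9%, 12.5% and 22.6% of all loci passed. In FD cells PGF gained 1.68 (SE at most 0.51) while FLT1, ANGPT1 and TEK differed by -1.01, -0.88 and -0.82 (SE at most 0.30, 0.21 and 0.23). In N cells VEGFA and VEGFC differed by -0.56 and -0.52 (SE 0.16 and 0.17, as the p-values give them). In NFD cells TIE1 gained 2.71 (SE at most 0.88) while ANGPT1 and TEK differed by -3.50 and -3.88 (SE at most 0.96 and 1.53), TEK just inside the limit. The deposited KDR fold in FD cells differed by 1.51 (SE at most 1.79) and did not pass. A difference in fold includes the change of the GFP control with time, which was 4.99-fold for TEK. The GFP level of TIE1 went from 0.332 to 0.101 FPKM, a log2 difference of -1.71, while its NFD level was 2.00-fold higher at 2 than at 0.5 DPT.

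KDR and TEK, receptors of endothelial cells, were set beside markers of that cell type and of fibroblasts. Fibroblast markers summed to between 9045 and 11107 FPKM in GFP cells over the 3 times, 6493 to 6917 in FD cells, 6713 to 6743 in N cells and 1538 to 4763 in NFD cells, and in NFD cells 7, 9 and 10 of 10 fell in the authors' deposited tables, where 31.3%, 33.2% and 32.0% of all tested loci did. COL3A1 and THY1 rose there at 0.5 DPT. In N cells 7, 7 and 8 of 10 fibroblast markers fell and 3, 1 and 1 rose. In FD cells 5, 6 and 8 of 10 fell and 0, 1 and 1 rose. DCN, a collagen-binding proteoglycan, fell in NFD cells with -2.36, -3.75 and -5.21 in the authors' deposited tables. DCN also fell in N cells with -1.98, -2.74 and -3.18 and in FD cells with -0.51, -0.44 and -0.50. Endothelial markers (14 genes) summed to 9.36 to 11.3 FPKM in GFP cells, 7.54 to 9.74 in FD cells, 5.77 to 9.28 in N cells and 11.1 to 15.7 in NFD cells, and EGFL7 made up most of the GFP sum. PLVAP was at 0 in every group. CDH5 was at 0 in every GFP group, at most 0.00394 FPKM in FD cells and at 0.371, 0.285 and 0.355 FPKM in N cells. In NFD cells CDH5 was at 0.349, 0.564 and 0.651 FPKM and rose at 1 and 2 DPT in the authors' deposited tables. Other endothelial genes were present: EGFL7, a secreted protein of endothelium, was at 6.91 to 8.29 FPKM in GFP cells. ECSCR, an endothelial surface protein, was at 2.78, 1.18 and 0.195 FPKM in GFP cells and 2.59, 0.947 and 0.175 FPKM in FD cells. ROBO4, a receptor of endothelium, was at 0.598, 0.370 and 0.142 FPKM in GFP cells. The part of endothelial cells in the KDR and TEK levels was not tested.

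In NFD cells, where TIE1 rose, 2, 4 and 5 of the 7, 6 and 6 endothelial markers tested rose and 2, 2 and 1 fell, where 32.1%, 32.6% and 34.1% of all tested loci rose and 31.3%, 33.2% and 32.0% fell. EGFL7 fell with -0.73, -0.78 and -0.44 and ECSCR fell at 0.5 and 1 DPT with -2.56 and -2.55 in the authors' deposited tables, and ECSCR was listed at 0 at 2 DPT. VWF, a clotting factor of endothelium, went from 0.218, 0.222 and 0.125 FPKM in GFP cells to 1.01, 4.76 and 2.60 FPKM in NFD cells. CLDN5, a tight junction protein, went from 0.0802, 0.109 and 0.268 to 1.93, 2.74 and 2.34 FPKM. In N cells 3, 2 and 0 of 6, 4 and 1 endothelial markers tested rose and 2, 2 and 1 fell. VWF rose there at 0.5 and 1 DPT by 1.18 and 1.42, and CLDN5 at 0.5 DPT by 3.49, all at levels under 1 FPKM. In FD cells 0 of 3, 2 and 1 markers tested rose and 2, 1 and 0 fell. The adhesion molecule PECAM1, named as a defining marker, was at 1.59, 1.88 and 1.48 FPKM in NFD cells and at most 0.0340 FPKM in GFP cells. Blood cell markers other than CD68, a macrophage marker, stayed under 1 FPKM in all conditions. CD68 fell in N cells with -1.83, -2.09 and -1.96 and in NFD cells with -1.52, -1.63 and -1.35 in the authors' deposited tables. In FD cells CD68 rose at 2 DPT by 0.88, while 0.09 and 0.12 at 0.5 and 1 DPT did not pass. CD14, another blood cell marker, rose in NFD cells at 2 DPT by 1.16, to 0.602 FPKM. In bulk RNA, fewer cells of a type and less RNA per cell cannot be told apart, and the part of cell composition in the member changes was not tested.

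**Figure D4:**
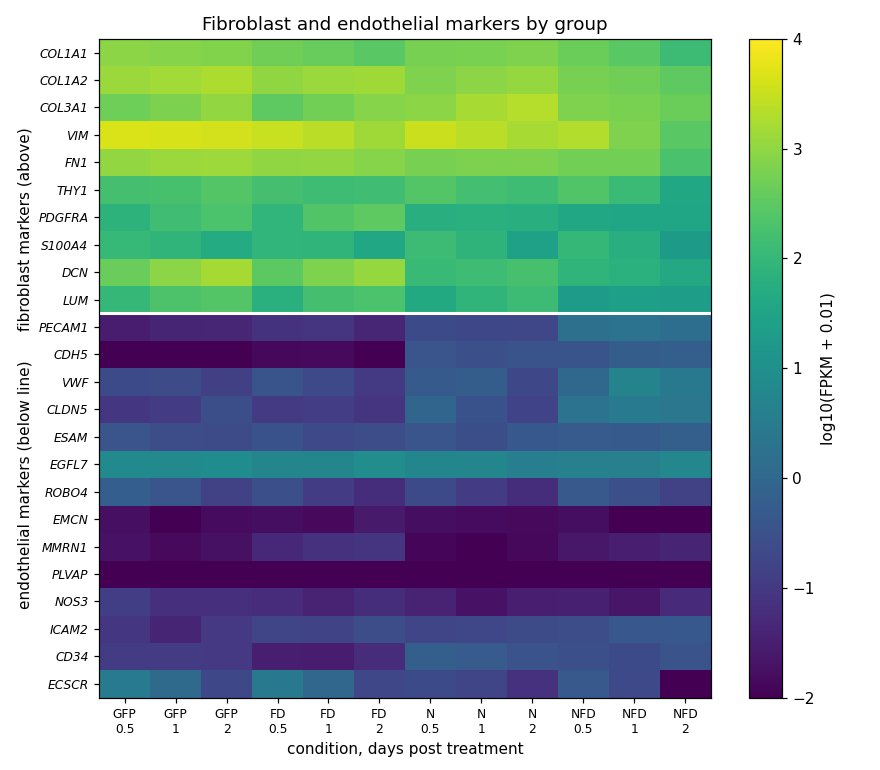
Heat map of fibroblast markers (upper rows) and endothelial markers (lower rows) in the 12 groups (columns, condition and days post treatment); colour is log10(FPKM + 0.01) of the authors' value for 3 libraries. Fibroblast markers are abundant and their sum is lowest in NFD cells at each time, PLVAP is at 0 in every group, and PECAM1, VWF and CLDN5 are highest in NFD cells.

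The lists that follow hold other genes of the pathway and its setting. The shares of all tested loci that rose in FD cells were 17.8%, 16.0% and 16.9%, in N cells 26.2%, 25.4% and 27.1% and in NFD cells 32.1%, 32.6% and 34.1%. Those that fell were 18.8%, 22.3% and 21.6%, 24.3%, 29.3% and 30.0%, and 31.3%, 33.2% and 32.0%, and each list count is to be read against them. The other ligands, receptors and co-receptors of the pathway comprised 12 genes. In FD cells 2, 3 and 5 of 7, 7 and 8 tested rose and 2, 1 and 1 fell. In N cells 3, 4 and 4 of 9, 10 and 10 rose and 4, 3 and 4 fell, and in NFD cells 3, 3 and 3 of 9, 10 and 10 rose and 4, 4 and 5 fell. NRP2, a co-receptor that binds VEGFC and VEGFA, rose in all 9 authors' deposited tables, by 0.93, 0.68 and 1.00 in FD cells, 1.50, 1.03 and 1.21 in N cells and 2.59, 2.37 and 1.87 in NFD cells. ITGA9, an integrin subunit that binds VEGFC and VEGFA, went from at most 0.0713 FPKM in GFP cells to 2.98, 7.78 and 20.1 FPKM in N cells and 3.58, 19.0 and 21.5 FPKM in NFD cells. ITGB3, an integrin partner of KDR, fell in N and NFD cells, with -2.54 and -2.93 at 2 DPT, in the authors' deposited tables. VEGFD, a ligand of FLT4 and KDR listed under its older symbol FIGF, was at most 0.194 FPKM in GFP cells and reached 1.29, 1.66 and 2.34 FPKM in N cells and 2.76, 2.79 and 3.98 FPKM in NFD cells. It rose in both at 1 and 2 DPT and in FD cells at 2 DPT in the authors' deposited tables. FLT4, the receptor of VEGFC, was at most 0.385 FPKM and tested in no table, and PTPRB, a phosphatase that restrains TEK, was at most 0.0645 FPKM.

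Of 16 VEGF receptor signalling and feedback genes, 12, 12 and 13 were tested in FD cells, where 4, 4 and 4 rose and 4, 6 and 6 fell. In N cells 13, 12 and 12 were tested, 8, 6 and 6 rose and 3, 3 and 4 fell, and in NFD cells 13 were tested at each time, 9, 8 and 6 rose and 3, 3 and 5 fell. Their median log2 fold changes were 0.01, -0.19 and -0.21 in FD cells, 1.04, 0.38 and 0.14 in N cells and 1.06, 0.76 and 0.19 in NFD cells. DLL4, a Notch ligand induced by VEGF in endothelial tip cells, fell in FD cells with -1.78, -2.31 and -2.45 and rose in N cells by 1.58, 2.04 and 0.66 in the authors' deposited tables. SPRY2, a feedback inhibitor of receptor tyrosine kinase signalling, fell in FD cells with -1.34, -1.35 and -1.53 and rose by 1.75, 2.69 and 2.86 in NFD cells in the same deposited tables. RCAN1, a calcineurin regulator induced by VEGF in endothelium, fell in all 9 authors' deposited tables. SH2D2A, an adaptor that binds KDR, went from at most 0.0460 FPKM in GFP cells to 3.13, 1.06 and 0.900 FPKM in NFD cells. It also rose in FD cells, by 4.07 and 4.04 at 0.5 and 1 DPT, in the authors' deposited tables. The FD levels were 0.770 and 0.459 FPKM, so both sides of these folds are under 1 FPKM. In N cells SH2D2A rose at 0.5 DPT by 3.47, to 0.511 FPKM, and was not tested later. SHC2, an adaptor that binds KDR, rose in N cells by 2.32, 3.11 and 1.94 and in NFD cells by 1.31, 3.17 and 2.37 in the authors' deposited tables.

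Genes of the hypoxia response, of which VEGFA is a textbook target, gave mixed calls among 12 listed: 5, 5 and 3 of 10 rose and 2, 3 and 4 fell in FD cells, 3, 2 and 4 rose and 2, 4 and 2 fell in N cells, and 4, 4 and 3 rose and 2, 3 and 3 fell in NFD cells. HIF1A, the oxygen-regulated transcription factor subunit, rose in FD cells by 1.01, 0.94 and 1.06 in the authors' deposited tables. HIF1A fell in N cells at 0.5 and 1 DPT with -0.41 and -0.51, and -0.14 at 2 DPT did not pass. In NFD cells HIF1A fell at 0.5 DPT with -0.26, and the later values of -0.20 and -0.16 did not pass. NDRG1, a stress-induced gene, fell in FD cells with -0.61, -1.01 and -1.06 and rose in N cells by 2.23, 1.55 and 1.68 and in NFD cells by 1.96, 1.89 and 1.73 in the authors' deposited tables. PDK1, a kinase that restrains pyruvate dehydrogenase, rose in FD cells by 1.25, 1.18 and 0.87 in the authors' deposited tables. ADM, the vasodilator peptide adrenomedullin, fell in NFD cells with -2.58, -3.58 and -4.39 in the authors' deposited tables. ADM also fell in N cells with -1.01, -1.95 and -2.66. In FD cells it fell at 0.5 and 2 DPT with -0.52 and -0.67, and -0.19 at 1 DPT did not pass.

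Among 16 other angiogenic ligands and inhibitors, 15 were tested at each time. In FD cells 6, 6 and 7 rose and 7, 7 and 6 fell, in N cells 5, 3 and 2 rose and 7, 9 and 10 fell, and in NFD cells 3, 1 and 1 rose and 9, 11 and 13 fell. Their median log2 fold changes were -0.24, -0.14 and 0.05 in FD cells, 0.00, -0.38 and -0.77 in N cells and -1.33, -1.25 and -1.99 in NFD cells. HGF, hepatocyte growth factor, rose in FD cells from 90.1, 119 and 94.6 to 217, 369 and 293 FPKM and fell to 29.2, 19.8 and 14.2 FPKM in N cells. THBS1, an inhibitor of angiogenesis, went from 306, 344 and 501 FPKM in GFP cells to 95.9, 67.1 and 47.1 FPKM in NFD cells. THBS1 also fell in FD cells with -2.11, -1.34 and -1.56. It rose in N cells at 0.5 and 1 DPT by 0.90 and 0.30, and 0.26 at 2 DPT did not pass. CYR61, a matricellular protein, fell in FD cells with -2.75, -1.83 and -2.51 and in NFD cells with -3.47, -4.09 and -3.69 in the authors' deposited tables. Of 13 endothelial transcription factors, 7, 7 and 7 were tested in FD cells, where 1, 2 and 2 rose and 3, 3 and 2 fell. In N cells 8, 8 and 7 were tested, 3, 3 and 2 rose and 3, 3 and 2 fell. In NFD cells 8, 9 and 8 were tested, 4, 3 and 3 rose and 3, 2 and 2 fell. MEF2C and GATA2 rose in N and NFD cells at all times and FLI1 fell in all 9 authors' deposited tables. KLF4 rose in FD cells and fell in N cells at all times in the same deposited tables. Of 7 mural markers, all tested, 3, 2 and 1 rose and 2, 2 and 2 fell in FD cells, 3, 3 and 3 rose and 4, 4 and 3 fell in N cells, and 1, 2 and 2 rose and 4, 4 and 3 fell in NFD cells. NOTCH3, a Notch receptor of mural cells, fell in N cells with -1.87, -1.98 and -1.70 and in NFD cells with -1.91, -1.75 and -2.14 in the authors' deposited tables. ABCC9, a potassium channel subunit, rose to 13.4, 27.4 and 28.8 FPKM in N cells from 1.16, 1.45 and 1.28 FPKM.

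TEK and KDR had the widest ranges over the 12 groups, 5.50 and 5.49 on log2(FPKM + 0.1). Among 14101 loci, the 5 whose log2(FPKM + 1) followed TEK most closely were RUNDC2C (r = 0.990), FER1L4 (0.982), IPMK (0.981), HSD17B2 (0.980) and TRPA1 (0.979), by Pearson's r over 12 groups. For KDR they were FAM5C (r = 0.981), LOC285419 (0.977), FGF14 (0.971), GPC5 (0.970) and MIR345 (0.965). TRPA1, a cation channel, went from 10.8, 12.3 and 35.6 FPKM in GFP cells to 1.51, 1.42 and 2.21 FPKM in N cells. FGF14, an intracellular fibroblast growth factor relative, was at 0.229, 0.817 and 1.72 FPKM in FD cells and at most 0.212 FPKM in the other 3 conditions. The 12 points are 4 conditions at 3 times, and MIR345 is listed at 0 in 10 groups, so these are descriptions of likeness.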

How the data were processed

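Total RNA of MRC-5 cells was sequenced in 36 libraries. A label calls the molecule genomic DNA, but the extraction was of RNA. The build GRCh37 (hg19) and the tools Cuffdiff 2.1.0, Cufflinks 2.1.0 and TopHat 1.4.1 are taken from the submitters' processing notes. Each deposited row holds 1 locus with the FPKM of GFP and of 1 condition, the log2 fold change, the p-value and the q-value, per the file headers, each over 3 libraries. Values per library were not analysed here, so depth and its precision are unknown, and no error per group can be given. The log2 columns hold some cells damaged by a spreadsheet and some infinite values, and direction was then read from the pair of FPKM values.

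Calls used the deposited q-value, with a limit of 0.05. A difference of 2 deposited log2 fold changes was divided by the root sum of squares of SEs, each the size of the fold change over the z of its p-value, and p-values were Benjamini-Hochberg adjusted over all loci tested in the tables concerned. These SEs are upper bounds where the GFP group is shared or a p-value is at the smallest deposited value of 5e-05. The difference test was run on simulated data with normal noise, set up as NFD against N at 2 DPT. With 200 of 13481 genes changed, it recovered 33% of changes of size 1 on the log2 scale and 56% of size 2. It called 0% of unchanged genes. Whether the simulated noise is like that of the libraries was not tested, so the 0% is no rate of false calls for the real comparisons. Python 3.11.15, numpy 2.4.6, pandas 2.3.3, scipy 1.17.1 and matplotlib 3.10.9 were used.

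All 10 members are named. From 9 lists of 107 genes, all found in the tables, genes called in 1 direction at 3 times in a condition, with at least 1 FPKM in a group, were ranked by size of fold at 2 DPT, at most 3 per condition, and the text names a selection of these. PECAM1, CDH5, PLVAP, ECSCR, ROBO4, COL3A1, THY1, FIGF, FLT4 and PTPRB are named outside this rule, as markers, some chosen after their values were seen, or as ligands, receptors and regulators of the pathway. For TEK and KDR, with the widest ranges, the 5 loci with the highest Pearson r are named. Members and lists were chosen with earlier results of these data known. Alternatives were other thresholds, pseudocounts of 0.1 and 1 FPKM, a filter at 1 FPKM and centring on the table median.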

Additional observations from a re-analysis of the deposited data

Results flagged for a closer look

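Each value here is a difference of log2 fold changes that passed the approximate difference test over all loci, between 2 times or between cells with and without NEUROG2. In FD cells the fold against GFP differed between 2 and 0.5 DPT by 1.68 for PGF, -1.01 for FLT1, -0.88 for ANGPT1 and -0.82 for TEK. In N cells it differed by -0.56 for VEGFA and -0.52 for VEGFC. In NFD cells it differed by -3.50 for ANGPT1, -3.88 for TEK and 2.71 for TIE1.

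The effect of the molecules with NEUROG2 minus that without it was -1.93, -4.00 and -4.42 for ANGPT1 at 0.5, 1 and 2 DPT, and -1.26 for VEGFC at 2 DPT. The tests rest on 1 value per group of 3 libraries. The effect without NEUROG2 is FD over GFP and may also hold a change of medium.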

How the results depend on the processing

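No paired analysis was possible because the tables give 1 FPKM per group and no value per library; for the same reason a replicate block and leaving out each replicate were not run. No direction reversed when folds were centred on the table median, the only alternative run that could reverse one. All counts of rises and falls, when centred and with a filter at 1 FPKM, were within 1.5 times the reported ones. Pseudocounts of 0.1 and 1 FPKM, added to both levels, cannot change the direction of a fold and so did not test it. With Benjamini-Hochberg adjustment within 1 table, and at a q-value of 0.01, falls in FD cells at 1 DPT went from 1 to 0, and at a q-value of 0.01 rises in N cells at 0.5 DPT went from 5 to 4 (TIE1). With the 1 FPKM filter rises went from 3 to 2 in FD cells at 0.5 DPT (KDR), from 5 to 4 in N cells at 0.5 DPT and from 4 to 3 in NFD cells at 0.5 and 1 DPT (TIE1 in each). Requiring at least a 2-fold change on log2(FPKM + 1), rises became 1, 2 and 2 in FD cells, 3, 2 and 2 in N cells and 3, 3 and 2 in NFD cells at 0.5, 1 and 2 DPT. Under the same requirement falls became 0, 0 and 0 in FD cells, 1, 1 and 1 in N cells, and 2 and 3 in NFD cells at 0.5 and 1 DPT, while the count at 2 DPT was 4 as reported. At an adjusted p of 0.01, members whose fold differed between 2 and 0.5 DPT became 2 in FD, 1 in N and 1 in NFD cells, and members whose molecule effect differed with NEUROG2 at 2 DPT became 1, and members that differed between NFD and FD cells at 1 DPT went from 5 to 4 (PGF). These losses follow from the stricter limits. Low GFP levels limit the KDR and TIE1 folds, and unknown depth limits what can be said of ANGPT2.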
